A study of Homo sapiens with 9 samples.

Results

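Translation initiation and elongation factors are the proteins that bring a ribosome to the start codon of an mRNA and then move it along the message. Their genes were taken from the deposited expression table as the protein-coding genes on assembled chromosomes whose symbols begin with EIF followed by a digit from 1 to 6, or with EEF followed by 1 or 2, leaving out the eIF2 alpha kinases (symbols beginning with EIF2AK). This gave 57 members among 45754 genes, of which 18751 are protein-coding genes on chromosomes. One member lies on the Y chromosome and was counted but not described, which leaves 56. RNA had been sequenced in 3 groups of 3 libraries from human cells whose label is H441, an established line from a lung adenocarcinoma. RSGL cells received 10 µM of a compound known in the labels only as RSGL for 24 h, BSGL cells received 10 µM of a compound known only as BSGL for 24 h, and control cells received 0.1% DMSO, the solvent, for 24 h. All cells were kept in RPMI 1640 medium with 10% fetal bovine serum, and TRIzol extracts were made into libraries with a NEBNext Ultra kit. The labels give the cell line as H441 throughout, but a second tag, for genotype, names A549 for the 3 RSGL libraries and H460 for the 3 BSGL and 3 control libraries, so in any comparison with RSGL the compound and that tag cannot be told apart. The protocol text speaks of a single replicate and does not say that the 3 libraries of a group came from separate cultures, so p-values measure the spread between these libraries, which may be technical.

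Initiation begins when eIF2, bound to GTP, carries the initiator tRNA to the small ribosomal subunit together with eIF1, eIF1A, eIF5 and the multi-subunit scaffold eIF3. The mRNA is brought in through its cap by eIF4E, the scaffold eIF4G and the helicase eIF4A, and the 4E-binding proteins compete with eIF4G for eIF4E unless the kinase mTORC1 has phosphorylated them. After the start codon is found, eIF2B recharges eIF2 with GTP, a step that is blocked when stress kinases phosphorylate eIF2 alpha, and eEF1A and eEF2 take over to deliver aminoacyl-tRNAs and to move the ribosome. Many mRNAs of the translation machinery start with a cytosine followed by a run of pyrimidines, a terminal oligopyrimidine tract through which mTORC1 controls their translation.

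Start-site sequences were available in the RefSeq promoter table (GRCh38.p14) for 45 of the 56 members. A cytosine at the first transcribed base followed by at least 4 further pyrimidines was present at a start of 10 of these 45 members (22.2%). Of all 27305 genes in the table, 1404 (5.14%) had such a start, but these include genes too low to be tested. Among the genes tested below, 710 had such a start and 8833 another start, beside 10 and 32 of the tested members. The 10 starts are printed 5′ to 3′ on the transcribed strand, from 15 bases before to 15 bases from the start onward, because they include the most abundant member and because all 10 genes were called in the comparison of RSGL with control below. Some of those calls were lost under other settings, as given below. Capitals mark the uninterrupted pyrimidine run that begins at the first transcribed base.
EEF1A1, chr6:73521018-73521047, minus strand: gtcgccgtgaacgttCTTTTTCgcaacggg
EEF2, chr19:3985449-3985478, minus strand: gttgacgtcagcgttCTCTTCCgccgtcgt
EIF3D, chr22:36529152-36529181, minus strand: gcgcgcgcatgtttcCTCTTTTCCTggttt
EIF3F, chr11:7987322-7987351, plus strand: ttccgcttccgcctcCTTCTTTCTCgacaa
EIF3M, chr11:32583816-32583845, plus strand: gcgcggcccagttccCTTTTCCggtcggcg
EIF4A2, chr3:186783562-186783591, plus strand: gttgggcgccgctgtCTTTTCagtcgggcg
EIF2D, chr1:206612451-206612480, minus strand: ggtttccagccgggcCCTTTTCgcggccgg
EIF2S3, chrX:24054941-24054970, plus strand: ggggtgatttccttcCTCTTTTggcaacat
EIF2A, chr3:150546772-150546801, plus strand: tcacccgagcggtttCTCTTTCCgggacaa
EIF4B, chr12:53006441-53006470, plus strand: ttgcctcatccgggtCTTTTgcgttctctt
The runs were 5 to 10 bases long, the longest in EIF3D and EIF3F. Another 4 starts are printed in the same way for contrast: EIF1 and EIF1B had 2 of the 3 largest rises with RSGL against control, EIF4G1 the largest fall, and EIF3B the largest fall among eIF3 genes. They have no such run and so no capitals, and the EIF4G1 start is the most upstream of 3 in the table.
EIF1, chr17:41688870-41688899, plus strand: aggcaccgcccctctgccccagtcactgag
EIF1B, chr3:40309692-40309721, plus strand: tcggccattttgtgcgagaagccgcagcgc
EIF4G1, chr3:184314591-184314620, plus strand: tctgtgcggggagccggaaatggttgtgga
EIF3B, chr7:2354812-2354841, plus strand: ccccgtcgcacgcacatggctgggctgtag

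The same 300-base windows (250 bases before and 50 after the start) were searched on both strands for 3 further motifs. CACGTG is a palindrome known as an E-box and bound by MYC and related factors. It was found in 10 of 45 members (22.2%), against 8.77% of all genes in the table. Among the genes tested below, 1240 held it and 8303 did not, beside 9 and 33 of the tested members. EIF4G1, EIF4E and EIF5A2 each hold 2 copies. Those of EIF4G1 and EIF4E, the scaffold and the cap-binding protein of the cap complex, are printed as examples, with the motif in capitals and 10 bases on each side. The EIF4G1 copies lie 144 and 67 bases before the start in the window chr3:184314356-184314655, and the EIF4E copies lie 225 and 72 bases before the start in the window chr4:98929084-98929383.
EIF4G1, first copy: ctgtggctgtCACGTGacggggcggg
EIF4G1, second copy: ctgcgccggtCACGTGggggcgccgg
EIF4E, first copy: acccatcggcCACGTGaccagtcctt
EIF4E, second copy: acatatccgtCACGTGgccagaagct
TGATGNAA, the core of the composite element bound by ATF4 with a C/EBP partner, was found in 1 of 45 members (2.22%), EIF4E3, against 4.46% of all genes. EIF4E3 has several starts in the table, and only 1 of its windows held the motif. TGACGTCA, the cAMP response element, was also found in 1 of 45 (2.22%), EEF2, against 2.25% of all genes. These are matches of letters in a fixed window and not measured binding sites. Members without a start in the table were not searched for any of these motifs. They include EIF4EBP1, EEF1A2 and EIF2S2, which were among the largest rises with RSGL.

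The libraries held 16720414 to 18738947 fragments assigned to genes, and 12213 to 12338 genes reached 1 FPKM, the unit of the table (fragment counts divided by gene length and by library size). A single fragment of a 2 kb gene was worth 0.0249 to 0.028 FPKM. Libraries of the same group differed by more than sampling noise, with chi-square values of 4.4 to 10.6 per degree of freedom, so none was treated as a second copy of another. This does not show that they came from separate cultures. The label H441 was checked against 9 genes of the lung lineage for which that line is known, and none of them passed the filter on low values: the highest value was 1.24 FPKM, NKX2-1 did not exceed 0.0596 FPKM and SCGB3A2 was listed at 0 in all 9 libraries. Of 11 genes known to be high in lung cancer lines with mutant KEAP1, 10 passed the filter. The summed level of the 11 was 2202 to 2273 FPKM in RSGL, 3773 to 3854 FPKM in BSGL and 4051 to 4150 FPKM in control. The sum was thus lower in RSGL, but ALDH1A1 weighed most in it, at 746 to 2001 FPKM over the 9 libraries. Other genes of the list differed in range, such as AKR1B10 at 133 to 376 FPKM and GCLM at 31.4 to 36.1 FPKM. The summed level of 5 epithelial markers, 4 of which passed, was 741 to 779 FPKM in RSGL, 1056 to 1105 FPKM in BSGL and 1065 to 1093 FPKM in control. KRT8 (418 to 664.5 FPKM) and KRT18 (312 to 434 FPKM) made up nearly all of it, while CDH1 did not exceed 8.37 FPKM and EPCAM 0.719 FPKM. The summed level of 6 leukocyte markers, 2 of which passed (CD68 and CD14, with CD3E at 0 throughout and PTPRC no higher than 0.0133 FPKM), was 116 to 121 FPKM in RSGL, 46.5 to 47.7 FPKM in BSGL and 42.1 to 42.6 FPKM in control. Nearly all of this was CD68, at 39.9 to 121 FPKM over the 9 libraries, while CD14 did not exceed 2.22 FPKM. The summed level of 7 fibroblast markers, 3 of which passed, was 7.9 to 8.16 FPKM in RSGL, 10.3 to 11.1 FPKM in BSGL and 9.93 to 11.3 FPKM in control, and the 5 endothelial markers did not exceed 0.0412 FPKM. The part of these marker differences in the results on the translation factors was not tested.

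The levels of the 56 described members came to a sum of 8084, 7904 and 7831 FPKM in the RSGL libraries, 7133, 7181 and 7100.2 FPKM in the BSGL libraries and 6914, 6996 and 7152 FPKM in the control libraries, which is 1.92 to 2.08% of all FPKM in RSGL, 1.78 to 1.84% in BSGL and 1.78 to 1.83% in control. All 3 RSGL sums lay above all BSGL and control sums. EEF1A1 alone made up 28.7, 27.6 and 28.1% of the sum in RSGL libraries, 24.7, 25.2 and 24.8% in BSGL libraries and 24.5, 25.2 and 24.4% in control libraries. Without EEF1A1 the other members summed to 5630 to 5766 FPKM in RSGL, against 5342.6 to 5372 FPKM in BSGL and 5219 to 5408 FPKM in control. Abundant members weighed most in this: EIF1 averaged 577 FPKM in RSGL and 366 FPKM in control, and EIF4EBP1 241 and 126.5 FPKM. EEF1G averaged 990 FPKM in RSGL and 905 FPKM in control, and EEF2 604 and 540 FPKM. Of the 53 members tested below, 28 were higher and 25 lower in RSGL than in control, whatever the size of the difference.

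FPKM is scaled to gene length, so levels can be ordered between genes. In each of the 3 groups the order began with EEF1A1, EEF1G, EEF2, EIF1 and EIF5A. EEF1A1, which brings aminoacyl-tRNA to the ribosome, averaged 2232 ± 75.3 FPKM in RSGL, 1776 ± 28.5 FPKM in BSGL and 1735 ± 35.4 FPKM in control (SD over 3 libraries each), and EEF1G, a structural subunit of the complex that recharges it, averaged 989.7 ± 15, 921 ± 11 and 905 ± 36.1 FPKM in the same 3 groups. These neighbours in the order were far apart compared with their spread. EIF1, at 366 ± 2.98 FPKM in control, and EIF5A, at 305 ± 24.5 FPKM in control, were also separated, but farther down EIF3A (106 ± 2.14 FPKM in control) and EIF4A3 (106 ± 1.13 FPKM in control) were not. EIF4EBP1, an inhibitor of eIF4E, was in the 6th place in RSGL, the 12th in BSGL and the 14th in control. The level was at least 100 FPKM for 18 members in RSGL, 19 in BSGL and 19 in control, between 10 and 100 FPKM for 26, 23 and 22 members in these groups, between 1 and 10 FPKM for 9, 10 and 11, and under 1 FPKM for 3, 4 and 4.

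**Figure D1:**
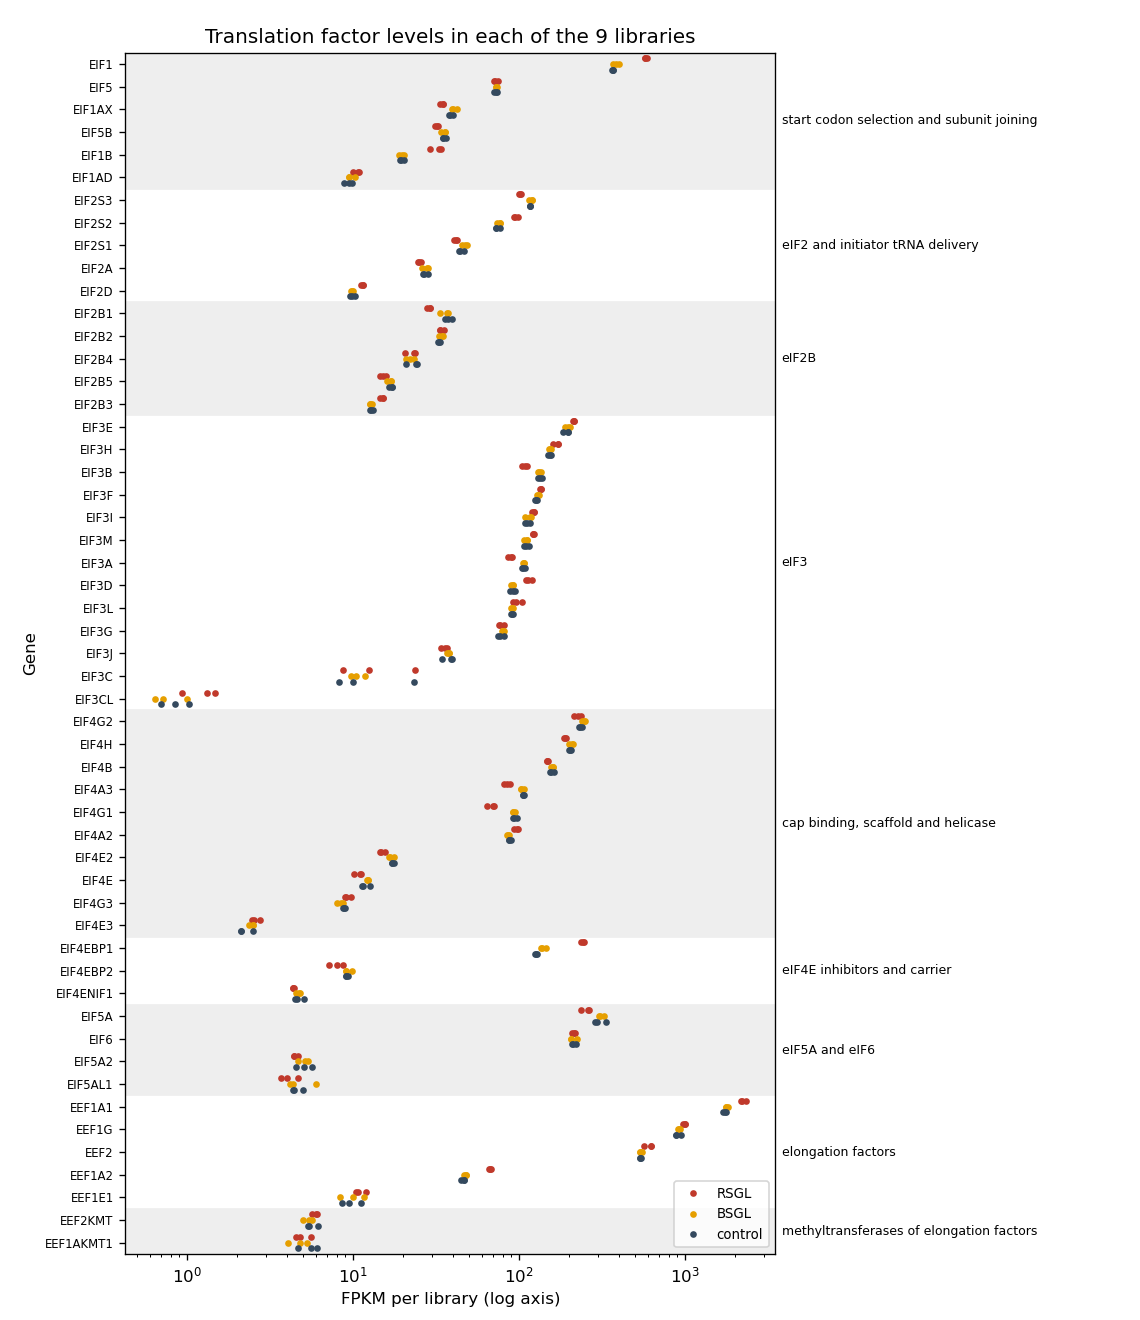
Level of the 53 members that passed the filter, as FPKM on a log axis, with 1 point per library coloured by group (RSGL, BSGL, control) and genes grouped by role. Levels run from EIF3CL, at 0.641 to 1.48 FPKM, to EEF1A1, at 1696 to 2318 FPKM, and the EIF4EBP1 and EIF1 points of RSGL lie to the right of those of BSGL and control.

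Libraries of a group lay close together. The median coefficient of variation over the members was 3.37% in RSGL, 2.93% in BSGL and 2.84% in control. EIF3C and EIF3CL, near-identical copies of the gene for the eIF3 c subunit on chromosome 16, were the exceptions. EIF3C had 23.6, 12.5 and 8.69 FPKM in RSGL libraries, 9.72, 11.8 and 10.4 FPKM in BSGL libraries and 8.21, 9.95 and 23.2 FPKM in control libraries, with a single high library in RSGL and in control. EIF3CL stayed between 0.641 and 1.48 FPKM. Reads of such copies can be split by the counting, so both values are uncertain, as is that of EIF5AL1, a copy of EIF5A, at 3.68 to 5.95 FPKM.

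Of the 56 members, 53 passed the filter of at least 1 FPKM in at least 3 of 9 libraries and could be tested. EIF4A1, a helicase that unwinds the start of mRNAs, was listed at 0 in all 9 libraries. Its span, chr17:7572706-7579006 on GRCh38, lies on the same strand as a readthrough transcript, SENP3-EIF4A1, annotated as a lncRNA, which averaged 0.17 FPKM in RSGL, 0.21 FPKM in BSGL and 0.29 FPKM in control, and other genes within it are the small nucleolar RNAs SNORA67, SNORD10 and SNORA48. The FPKM values came to whole fragments, so a 0 stands for no fragments assigned to the gene. The part of reads shared with overlapping genes in this value was not tested, and no level of EIF4A1 is drawn from it. EIF4E1B, a germ-line relative of eIF4E, was listed at 0 in 8 libraries and at 0.0272 FPKM in RSGL library 2. EIF4EBP3, the third 4E-binding protein, had 0.146, 0.324 and 0.159 FPKM in RSGL libraries, 0, 0.0777 and 0.299 FPKM in BSGL libraries and 0.15, 0.147 and 0 FPKM in control libraries.

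With RSGL, the message of the translation brake EIF4EBP1 was 1.91-fold that of control, those of the start-codon factors EIF1 and EIF1B were 1.58-fold and 1.62-fold those of control, and those of the elongation factors EEF1A1, EEF1A2, EEF1G and EEF2 were higher. The scaffold EIF4G1, the eIF3 core subunits EIF3A and EIF3B, the eIF2B subunit EIF2B1, the exon junction helicase EIF4A3 and EIF5A were lower. Differences were tested with limma on log2(FPKM + 1), in a fit over all 12775 genes that passed the filter, with Benjamini-Hochberg adjustment over all of them, and genes with an adjusted p under 0.05 count as called. On this basis 33 of the 53 members tested (62.3%) were called in RSGL against control, 18 higher and 15 lower, while 54.8% of all genes tested were called, 27.2% higher and 27.6% lower. The share called among the members is thus near that of all genes. The median difference was 0.01 on the log2 scale over the members and -0.0009 over all genes, and the median size of the difference, whatever its sign, was 0.14 over the members and 0.21 over all genes. Only 4 members differed by 0.5 or more on the log2 scale and 0 by 1 or more. For 38 members the RSGL and control libraries did not overlap, with RSGL higher for 20 and lower for 18, while the same was true of 61.2% of all genes (30.4% higher and 30.8% lower). In bulk samples, fewer cells of a type and less RNA per cell cannot be told apart.

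**Figure D2:**
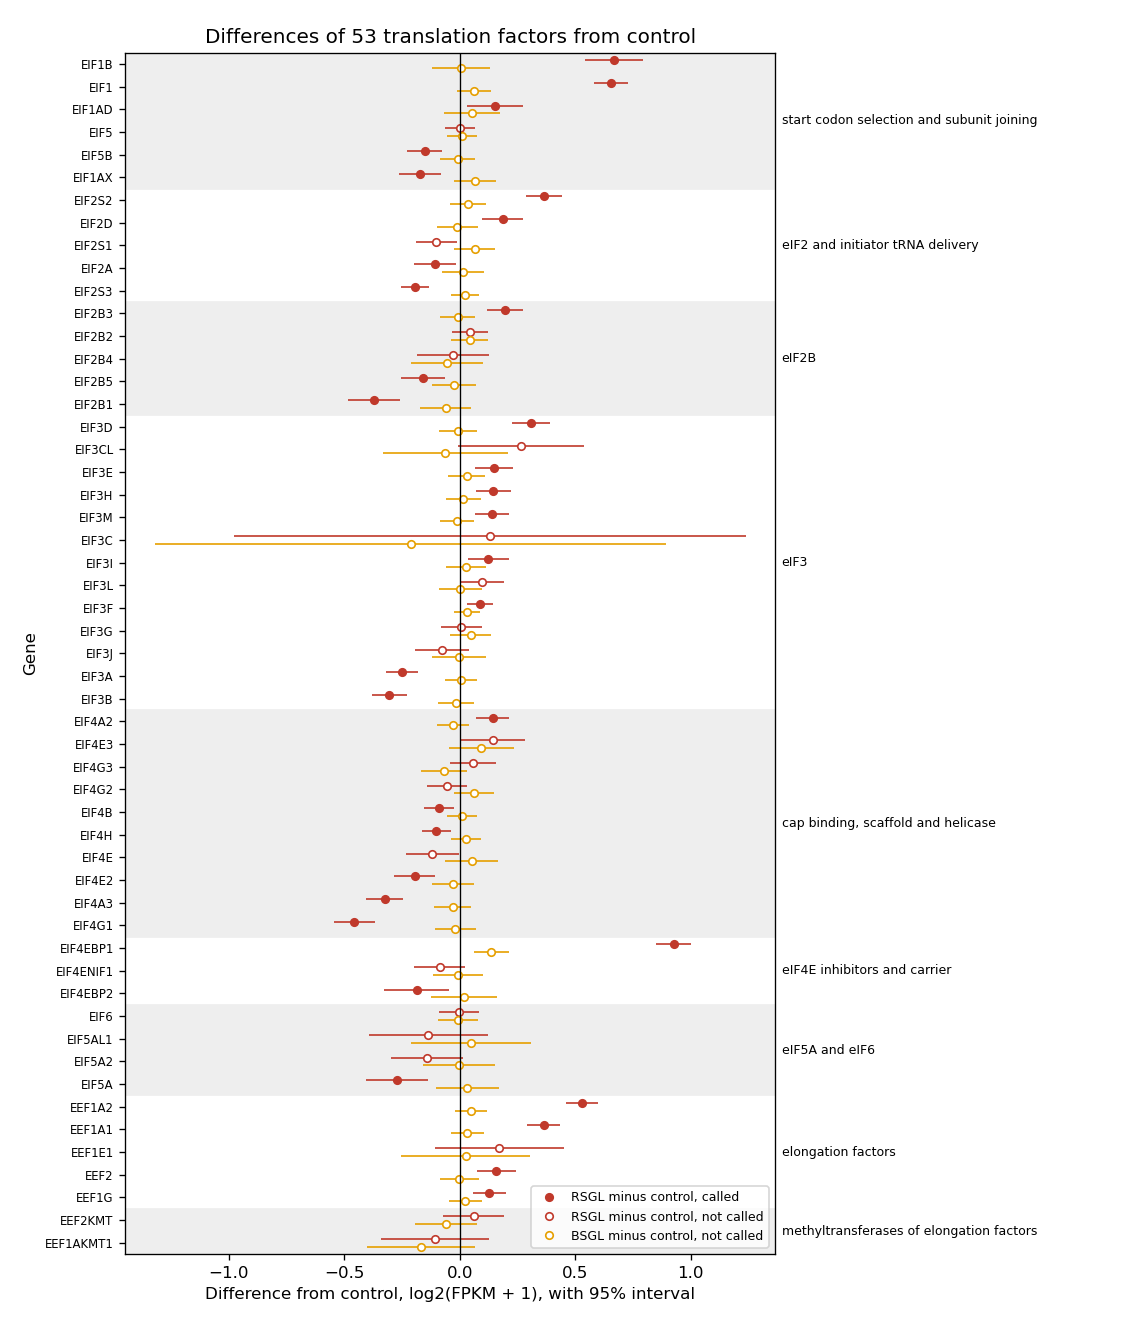
Differences of the 53 tested members from control on the log2(FPKM + 1) scale, by role, for RSGL minus control and BSGL minus control, with filled points for called genes (limma, adjusted p under 0.05), open points for the others and lines for 95% intervals. RSGL minus control runs from -0.46 (EIF4G1) to 0.93 (EIF4EBP1), while BSGL minus control holds no called gene and has its widest interval for EIF3C.

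The inhibitors of the cap-binding protein eIF4E held the largest difference of all members. EIF4EBP1 (chr8:38030502-38060365), which blocks the assembly of eIF4E with eIF4G, had 248, 241 and 235 FPKM in RSGL libraries, 136, 137 and 145 FPKM in BSGL libraries and 126, 128 and 125 FPKM in control libraries. Every RSGL library stood far above every other library, and the 3 BSGL libraries all stood above the 3 control libraries. The difference between RSGL and control was 0.93 on the log2 scale (SE 0.0332, limma adjusted p = 1.88e-08). EIF4EBP2, the second 4E-binding protein, moved the other way: it had 8.75, 7.97 and 7.15 FPKM in RSGL libraries, 9.04, 9.81 and 9.08 FPKM in BSGL libraries and 9.12, 9.04 and 9.34 FPKM in control libraries. It was called lower in RSGL at -0.19 (adjusted p = 0.0301), but the call was lost when control replicate 1, 2 or 3 or RSGL replicate 2 or 3 was left out (adjusted p 0.0569 to 0.0898), the difference being -0.12 without RSGL replicate 3. EIF4ENIF1, which carries eIF4E into the nucleus and into processing bodies, averaged 4.37 ± 0.0313 FPKM in RSGL and 4.71 ± 0.294 FPKM in control (SD) and was not called (adjusted p = 0.167). EIF4E itself had 11.2, 11.1 and 10.1 FPKM in RSGL libraries, 12.3, 12.1 and 12.3 FPKM in BSGL libraries and 11.3, 11.5 and 12.6 FPKM in control libraries. Its RSGL values were all below those of control, by -0.12 on the log2 scale, without passing the test (adjusted p = 0.0762), while the alternative limma-voom test on recovered fragments called it (adjusted p = 0.0355). As a ratio within each library, EIF4EBP1 stood at 22.2, 21.8 and 23.2 times EIF4E in RSGL, 11.1, 11.3 and 11.7 times in BSGL and 11.2, 11.2 and 9.89 times in control.

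**Figure D3:**
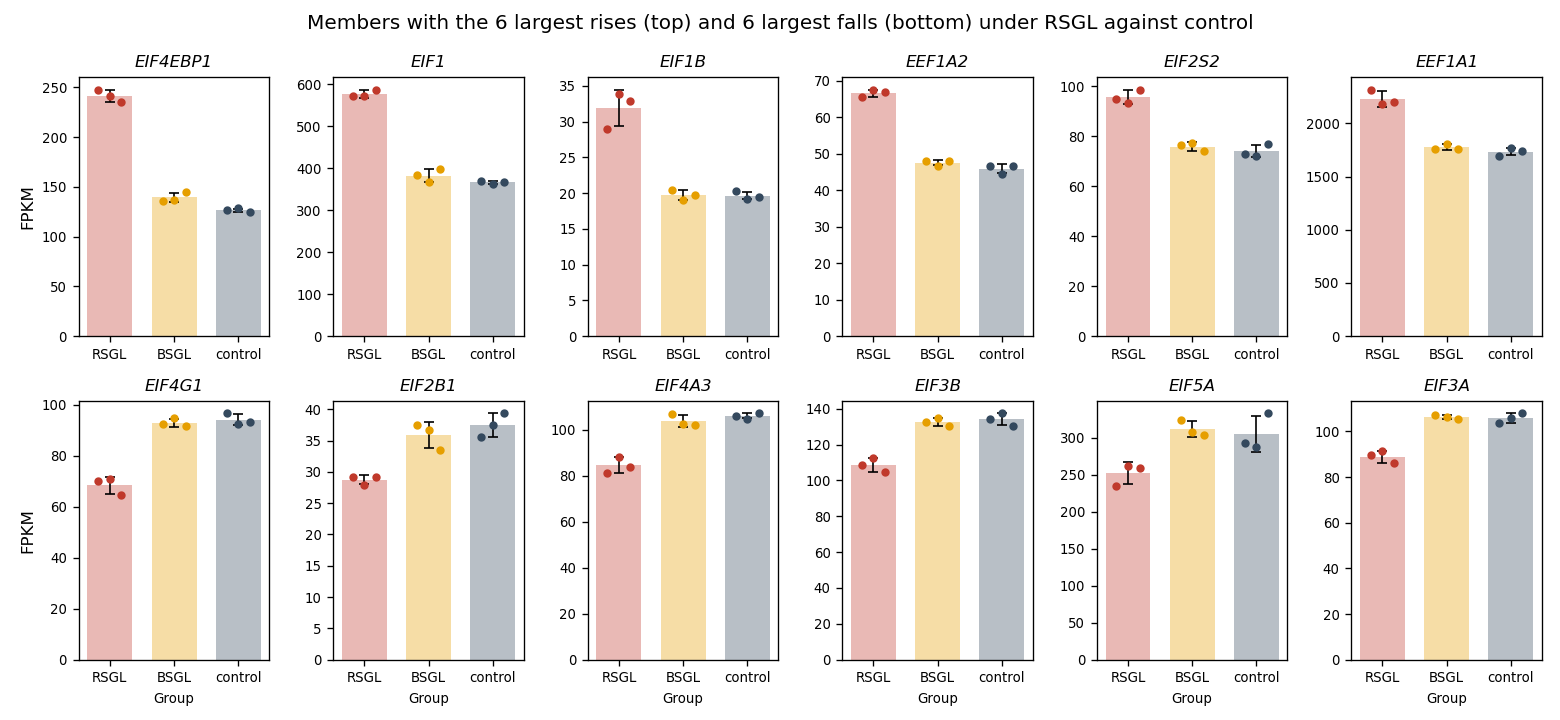
FPKM of the 6 members with the largest called rises (top) and the 6 with the largest called falls (bottom) in RSGL against control, with points for the 3 libraries of RSGL, BSGL and control, bars for group means and error bars for 1 SD. The RSGL libraries of EIF4EBP1 sit at 235 to 248 FPKM, above BSGL at 136 to 145 FPKM and control at 125 to 128 FPKM, and those of EIF4G1 sit at 64.4 to 70.7 FPKM, below BSGL at 91.7 to 94.7 FPKM and control at 92.4 to 96.7 FPKM.

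Among the 6 factors of start codon selection and subunit joining, 3 rose and 2 fell with RSGL. Over all genes tested, 27.2% were called higher and 27.6% lower in RSGL than in control. EIF1 (chr17:41688875-41691646), which keeps the scanning ribosome from settling on a wrong start codon, had 573, 571 and 588 FPKM in RSGL libraries, 383, 367 and 397 FPKM in BSGL libraries and 369, 363 and 367 FPKM in control libraries. The RSGL libraries were all higher than the rest, and the difference from control was 0.65 (SE 0.0329, adjusted p = 1.6e-07, limma). Its close relative EIF1B (chr3:40309682-40312424) had 29.0, 33.8 and 33 FPKM in RSGL libraries, 20.4, 19.0 and 19.8 FPKM in BSGL libraries and 20.2, 19.2 and 19.5 FPKM in control libraries. Here too the RSGL libraries did not overlap the others, and the difference of 0.67 (SE 0.056, adjusted p = 5.48e-06) was about that of EIF1. EIF5, which triggers GTP hydrolysis by eIF2 and competes with EIF1 at the start codon, had 74.7, 71.0 and 71.8 FPKM in RSGL libraries and 72.6, 73.5 and 71.1 FPKM in control libraries and was not called, with a 95% interval of -0.06 to 0.07. The ratio of EIF1 to EIF5 was therefore 7.67, 8.04 and 8.18 in RSGL libraries, 5.24, 5.06 and 5.42 in BSGL libraries and 5.09, 4.94 and 5.16 in control libraries. EIF1AX, the X-linked gene for eIF1A, which stabilises scanning, averaged 34.2 ± 0.928 FPKM in RSGL and 38.7 ± 1.27 FPKM in control and fell by 0.17 (adjusted p = 0.00494). EIF5B, the GTPase that joins the large subunit, averaged 31.8 ± 0.571 FPKM in RSGL and 35.4 ± 0.905 FPKM in control and fell by 0.15 (adjusted p = 0.00395). EIF1AD, a nuclear protein with an eIF1A-like domain, averaged 10.5 ± 0.467 FPKM in RSGL and 9.35 ± 0.549 FPKM in control (adjusted p = 0.0377). That call was lost without control replicate 2 or 3 or without RSGL replicate 1 or 2 (adjusted p 0.0656 to 0.137), and the gene overlaps BANF1 on the opposite strand, which averaged 103 FPKM in RSGL, 130.5 FPKM in BSGL and 130.1 FPKM in control.

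The 3 subunits of eIF2, which carries the initiator tRNA, did not move together. EIF2S2 (chr20:34088298-34112356), the beta subunit, had 94.8, 93.4 and 98.7 FPKM in RSGL libraries, 76.5, 77.1 and 74.0 FPKM in BSGL libraries and 73.1, 72.2 and 76.8 FPKM in control libraries. EIF2S3, the gamma subunit that binds GTP and the tRNA, had 102, 99.6 and 103 FPKM in RSGL libraries, 119, 119 and 116 FPKM in BSGL libraries and 116 FPKM in each of the 3 control libraries. EIF2S2 was thus higher in every RSGL library than in any other, and EIF2S3 was lower in every one, with differences from control of 0.37 (SE 0.0353, adjusted p = 1.52e-05) and -0.19 (adjusted p = 0.000204) by limma. EIF2S1, the alpha subunit that stress kinases phosphorylate, had 42.5, 41.8 and 40.6 FPKM in RSGL libraries and 43.4, 44.1 and 46.8 FPKM in control libraries. These did not overlap, but the difference of -0.10 was not called (adjusted p = 0.0528). EIF2D, a factor that recycles ribosomes and can place initiator tRNA without eIF2, averaged 11.4 ± 0.222 FPKM in RSGL and 9.91 ± 0.408 FPKM in control and rose by 0.19 (adjusted p = 0.0027). EIF2A, a separate initiator tRNA carrier that is not part of eIF2, averaged 25.1 ± 0.44 FPKM in RSGL and 27.1 ± 0.941 FPKM in control (adjusted p = 0.0449). The EIF2A call was lost without control replicate 2 or 3, BSGL replicate 1 or any of the 3 RSGL replicates (adjusted p 0.0571 to 0.155), and its gene overlaps SERP1 on the opposite strand, which averaged 45.5 FPKM in RSGL, 30.5 FPKM in BSGL and 30.1 FPKM in control.

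Of the 5 subunits of eIF2B, the exchange factor that reloads eIF2 with GTP, 1 was called higher and 2 lower. The shares over all genes tested were 27.2% higher and 27.6% lower. EIF2B1 (chr12:123621023-123633776), the alpha subunit through which phosphorylated eIF2 is sensed, had 29.2, 27.9 and 29.2 FPKM in RSGL libraries, 37.5, 36.7 and 33.6 FPKM in BSGL libraries and 35.6, 37.6 and 39.3 FPKM in control libraries. All 3 RSGL libraries lay below the other 6, and the difference between RSGL and control was -0.37 (SE 0.0498, adjusted p = 0.000151). EIF2B1 overlaps GTF2H3 on the opposite strand, which averaged 20.4 FPKM in RSGL, 18.7 FPKM in BSGL and 17.4 FPKM in control. EIF2B5, the catalytic epsilon subunit, averaged 15.1 ± 0.642 FPKM in RSGL and 17 ± 0.409 FPKM in control and fell by 0.16 (adjusted p = 0.00956). EIF2B3, the gamma subunit that works with it, averaged 14.9 ± 0.298 FPKM in RSGL and 12.9 ± 0.273 FPKM in control and rose by 0.20 (adjusted p = 0.000845). EIF2B2, the beta subunit, averaged 34.1 ± 0.997 FPKM in RSGL and 33 ± 0.347 FPKM in control, and EIF2B4, the delta subunit, averaged 22.5 ± 1.59 FPKM in RSGL and 22.9 ± 1.88 FPKM in control. Neither was called, with 95% intervals of -0.03 to 0.12 for EIF2B2 and -0.18 to 0.13 for EIF2B4.

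The 13 genes of eIF3, the small-subunit scaffold, were called higher in 6 cases and lower in 2, beside 27.2% and 27.6% of all genes. They include the copy EIF3CL and leave out the subunit gene EIF3K, which falls outside the rule and is given at the end. The 2 that fell encode large subunits around which the complex is built. EIF3A (chr10:119035029-119080822) had 89.5, 91.3 and 86.0 FPKM in RSGL libraries, 107, 106 and 106 FPKM in BSGL libraries and 104, 106 and 108 FPKM in control libraries. EIF3B (chr7:2354540-2380745) had 108, 112 and 104 FPKM in RSGL libraries, 133, 135 and 130.3 FPKM in BSGL libraries and 134, 137 and 131 FPKM in control libraries. For both, every RSGL library was lower than all others, by 0.25 for EIF3A (adjusted p = 8.46e-05) and 0.30 for EIF3B (adjusted p = 4.82e-05) on the log2 scale against control. EIF3D (chr22:36510850-36529431), the subunit that can itself bind the cap of some mRNAs, had 119, 110.3 and 113 FPKM in RSGL libraries, 91.7, 92.0 and 89.8 FPKM in BSGL libraries and 88.4, 92.3 and 94.3 FPKM in control libraries. It was the eIF3 gene with the largest rise, 0.31 (adjusted p = 6.13e-05), again with no overlap. The other 5 rises were smaller: EIF3E 0.15, EIF3H 0.14, EIF3M 0.14, EIF3I 0.12 and EIF3F 0.09 on the log2 scale, at 213, 168, 122, 122 and 135 FPKM in RSGL and 192, 152, 111, 112 and 127 FPKM in control. EIF3E, EIF3F, EIF3H and EIF3M belong to the same structural core as EIF3A, and EIF3I sits with EIF3B. Quantile scaling of the libraries ended the calls of EIF3E (adjusted p = 0.0669) and EIF3F (adjusted p = 0.115), and the call of EIF3I was lost without control replicate 1 or 2 or RSGL replicate 1 or 2 (adjusted p 0.0536 to 0.0805). EIF3G, EIF3J, EIF3L, EIF3C and EIF3CL were not called. EIF3L, another subunit of that core, had 104, 95.4 and 92.1 FPKM in RSGL libraries and 90.8, 89.5 and 91.6 FPKM in control libraries (adjusted p = 0.0731), while for EIF3C the interval ran from -0.97 to 1.24, so these libraries say little about it.

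Of the 10 tested factors of cap binding, scaffold and helicase, 5 fell and 1 rose, beside 27.6% and 27.2% of all genes. EIF4G1 (chr3:184314495-184335358), the scaffold that joins the cap to the poly(A) tail and to eIF3, had 69.9, 70.7 and 64.4 FPKM in RSGL libraries, 92.3, 94.7 and 91.7 FPKM in BSGL libraries and 96.7, 92.4 and 93.3 FPKM in control libraries. The RSGL libraries were all below the rest, and the difference from control of -0.46 (SE 0.0393, adjusted p = 6.68e-06) was the largest fall of any member. EIF4G2, a relative that lacks the eIF4E site and serves initiation that does not use eIF4E, had 237, 226 and 213 FPKM in RSGL libraries and 233, 238 and 231 FPKM in control libraries, and EIF4G3, a close relative of EIF4G1, had 8.92, 9.08 and 9.69 FPKM in RSGL libraries and 8.64, 8.8 and 9 FPKM in control libraries. Their libraries overlapped and neither was called, with 95% intervals of -0.14 to 0.03 for EIF4G2 and -0.04 to 0.16 for EIF4G3. EIF4A3 (chr17:80135214-80147183), a helicase of the same family that marks exon junctions rather than opening mRNAs for scanning, had 81.4, 88.4 and 84.1 FPKM in RSGL libraries, 107, 103 and 102 FPKM in BSGL libraries and 106, 105 and 107 FPKM in control libraries. It fell by 0.32 with no overlap (adjusted p = 3.95e-05). EIF4A2, the initiation helicase, had 99.0, 93.7 and 97.8 FPKM in RSGL libraries, 87.6, 85.4 and 84.5 FPKM in BSGL libraries and 86.6, 89.3 and 86.9 FPKM in control libraries. It was the only gene of this role called higher, by 0.14 (adjusted p = 0.00335), and it overlaps RFC4 on the opposite strand, which averaged 22.9 FPKM in RSGL, 30.4 FPKM in BSGL and 28.3 FPKM in control.

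The helper proteins of eIF4A fell slightly. EIF4B averaged 148 ± 1.01 FPKM in RSGL and 158 ± 4.47 FPKM in control, and EIF4H averaged 189 ± 1.82 FPKM in RSGL and 202 ± 2.37 FPKM in control (SD). Both were called, EIF4B at -0.09 (adjusted p = 0.0278) and EIF4H at -0.10 (adjusted p = 0.0121). The EIF4B call was lost without control replicate 3, RSGL replicate 2 or RSGL replicate 3 (adjusted p 0.0645 to 0.0842). EIF4E2, a cap-binding relative of eIF4E that represses translation with GIGYF2, had 14.7, 14.5 and 15.7 FPKM in RSGL libraries, 16.8, 17.6 and 16.5 FPKM in BSGL libraries and 17.2, 17.1 and 17.6 FPKM in control libraries. Its RSGL values were all lower, and it fell by 0.19 against control (adjusted p = 0.00229). EIF4E3, another relative, averaged 2.58 ± 0.155 FPKM in RSGL and 2.25 ± 0.212 FPKM in control and was not called (adjusted p = 0.0806), but was called when control replicate 3 was left out (0.20, adjusted p = 0.028) and by limma-voom (adjusted p = 0.0495).

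Of the 4 genes of eIF5A and eIF6, 1 was called, beside 54.8% of all genes tested. EIF5A (chr17:7306999-7312463), the hypusine-bearing factor that helps stalled ribosomes form peptide bonds, had 235, 262 and 259 FPKM in RSGL libraries, 323, 307 and 303 FPKM in BSGL libraries and 293, 288 and 333 FPKM in control libraries. The RSGL libraries did not overlap the others and the difference from control was -0.27 (SE 0.0606, adjusted p = 0.00371). EIF5A2, its second gene, had 4.44, 4.43 and 4.65 FPKM in RSGL libraries, 5.14, 5.37 and 4.67 FPKM in BSGL libraries and 4.55, 5.06 and 5.64 FPKM in control libraries. It overlapped between RSGL and control and was not called (-0.14, adjusted p = 0.117), although it was called without control replicate 1 (-0.20, adjusted p = 0.0319). EIF6, which keeps the large subunit from joining too early, had 218, 213 and 209 FPKM in RSGL libraries and 209.7, 212 and 219 FPKM in control libraries, with an interval of -0.09 to 0.08.

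Of the 5 tested genes of the elongation factors, 4 rose and 0 fell, beside 27.2% and 27.6% of all genes tested. EEF1A1 (chr6:73515750-73521032) had 2318, 2178 and 2201 FPKM in RSGL libraries, 1761, 1809 and 1758 FPKM in BSGL libraries and 1696, 1765 and 1744 FPKM in control libraries. EEF1A2 (chr20:63488012-63499315), its sister gene with the same function, known from muscle and neurons, had 65.5, 67.4 and 67.0 FPKM in RSGL libraries, 48.0, 46.7 and 48.0 FPKM in BSGL libraries and 46.7, 44.5 and 46.5 FPKM in control libraries. In both genes every RSGL library was higher than every other, and against control the difference was 0.36 for EEF1A1 (SE 0.0318, adjusted p = 7.66e-06) and 0.53 for EEF1A2 (SE 0.0308, adjusted p = 4.38e-07). EEF1A1 was 32.3 to 35.4 times as high as EEF1A2 in RSGL, 36.7 to 38.7 times in BSGL and 36.3 to 39.7 times in control. EEF1A1 has many pseudogene copies in the genome, so its value depends on how the counting placed shared reads. EEF2, which moves the ribosome by a codon, had 623, 620.4 and 568 FPKM in RSGL libraries, 532, 552 and 535 FPKM in BSGL libraries and 539, 535 and 546 FPKM in control libraries, and rose by 0.16 (adjusted p = 0.00523). EEF1G had 997, 999.7 and 972 FPKM in RSGL libraries, 921, 932 and 910.3 FPKM in BSGL libraries and 887, 882 and 947 FPKM in control libraries, and rose by 0.13 (adjusted p = 0.00745). Under quantile scaling both lost their calls: EEF2 kept its difference of 0.16 (adjusted p = 0.125), whereas that of EEF1G was 0.02 (adjusted p = 0.781). EEF1E1, named for this complex but part of the aminoacyl-tRNA synthetase complex, averaged 11.1 ± 0.82 FPKM in RSGL and 9.77 ± 1.33 FPKM in control and was not called (adjusted p = 0.271). The methyltransferases EEF1AKMT1, which modifies a lysine of eEF1A, and EEF2KMT, which modifies a lysine of eEF2, stayed between 4.52 and 6.05 FPKM in RSGL and between 4.65 and 6.12 FPKM in control, and neither was called.

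Both compounds had been given at 10 µM for 24 h, so their libraries could be compared at matched dose and time. In 53 tests, with p-values adjusted by Benjamini-Hochberg over all 12775 genes in limma, 35 members (66.0%) were called between RSGL and BSGL, 17 higher and 18 lower in RSGL, beside 54.0% of all genes (26.5% higher and 27.5% lower). The RSGL and BSGL libraries did not overlap for 40 members, with RSGL higher for 20 and lower for 20, beside 61.2% of all genes (29.8% higher and 31.4% lower). The median difference was 0.03 over the members and -0.01 over all genes. The extremes were EIF4EBP1 at 0.79 (95% interval 0.71 to 0.86, adjusted p = 5.69e-08) and EIF4G1 at -0.44 (95% interval -0.53 to -0.35, adjusted p = 9.66e-06). This comparison shares the RSGL libraries with the one against control, so both are given side by side and not as separate evidence. EIF1B differed by 0.66 from BSGL and by 0.67 from control, EIF1 by 0.59 and 0.65, EEF1A2 by 0.48 and 0.53, EIF2S2 by 0.33 and 0.37, EEF1A1 by 0.33 and 0.36, and EIF3D by 0.32 and 0.31. Among the falls, EIF2B1 differed by -0.31 from BSGL and by -0.37 from control, EIF5A by -0.30 and -0.27, EIF4A3 by -0.29 and -0.32, EIF3B by -0.29 and -0.30, and EIF3A by -0.26 and -0.25.

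The counts by role in RSGL against BSGL stand beside 26.5% higher and 27.5% lower over all genes. There were 2 higher and 2 lower of 6 start codon factors, and 2 and 3 of 5 in the eIF2 group. The eIF2B subunits gave 1 and 2 of 5, eIF3 genes 5 and 2 of 13, and cap-side factors 2 and 7 of 10. The eIF4E inhibitors gave 1 and 1 of 3, and the eIF5A and eIF6 group 0 and 1 of 4. Elongation factors gave 4 and 0 of 5, and methyltransferases 0 of 2. Members called here but not against control were EIF2S1 (-0.17, adjusted p = 0.00534), EIF4E (-0.17, adjusted p = 0.0177), EIF4G2 (-0.12, adjusted p = 0.0271), EIF4G3 (0.13, adjusted p = 0.0345) and EIF3CL (0.33, adjusted p = 0.0427). EIF4E lost its call without RSGL replicate 3 (adjusted p = 0.0583). EIF4G2 lost it without BSGL replicate 2 or 3 or RSGL replicate 2 or 3 (adjusted p 0.0602 to 0.089), and EIF4G3 without the same 4 libraries, 1 at a time (adjusted p 0.0554 to 0.12). EIF3CL was called although its libraries overlapped, at 1.48, 1.32 and 0.938 FPKM in RSGL and 0.641, 1.00 and 0.712 FPKM in BSGL, and lost the call without control replicate 3, BSGL replicate 1 or 3 or RSGL replicate 1 or 2 (adjusted p 0.0543 to 0.145). Members called against control but not against BSGL were EIF1AD, EIF3F and EIF3I, at adjusted p of 0.157, 0.0925 and 0.0579. Calls of 6 further members against BSGL also depended on single libraries. EEF1G was not called without BSGL replicate 1 or 3 or RSGL replicate 1 or 2 (adjusted p 0.0585 to 0.075), and EIF2A without BSGL replicate 1 or 2 or RSGL replicate 2 or 3 (adjusted p 0.0556 to 0.0958). EIF2B5 was not called without BSGL replicate 2 or 3 or RSGL replicate 2 (adjusted p 0.0704 to 0.0803), and EIF3E without BSGL replicate 2 or 3 or RSGL replicate 1 (adjusted p 0.0516 to 0.0781). EIF4B was not called without BSGL replicate 1 or 2 (adjusted p 0.0534 to 0.0586), and EIF4EBP2 without BSGL replicate 2 or RSGL replicate 3 (adjusted p 0.0559 to 0.0735).

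With BSGL, 0 of the 53 members was called against control by limma, beside 0.0861% of all genes (0.047% higher and 0.0391% lower), and limma-voom on recovered fragments also called 0 members. At an unadjusted p under 0.05 there was 1 member, EIF4EBP1, whose 3 BSGL libraries (136, 137 and 145 FPKM) all lay above the 3 control libraries (126, 128 and 125 FPKM). Its difference was 0.14 (95% interval 0.06 to 0.21, unadjusted p = 0.00219, adjusted p = 0.353). EIF3F, EEF1A2 and EIF4G2 were the other 3 members whose BSGL and control libraries did not overlap, each higher in BSGL, by 0.03, 0.05 and 0.06 on the log2 scale. That makes 4 members higher and 0 lower without overlap, beside 12.8% of all genes (7.16% higher and 5.63% lower). The differences of all members ran from -0.21 (EIF3C) to 0.14 (EIF4EBP1). For 45 of the 53 members the 95% interval of the difference lay within 0.2 on the log2 scale of 0 in both directions. The other 8, for which a larger difference is not excluded by the interval, were EIF4EBP1, EIF3C, EIF3CL, EIF5AL1, EEF1E1, EEF1AKMT1, EIF2B4 and EIF4E3. EIF1, EIF1B, EIF4G1 and EEF1A1, which were called with RSGL, had intervals of -0.01 to 0.13, -0.12 to 0.13, -0.11 to 0.07 and -0.04 to 0.11 with BSGL.

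The 10 members whose transcripts start with the pyrimidine run printed above were all called in RSGL against control, 7 higher (EEF1A1, EEF2, EIF3D, EIF3F, EIF3M, EIF4A2 and EIF2D) and 3 lower (EIF2S3, EIF2A and EIF4B), with a median difference of 0.14. The calls of EEF2 and EIF3F were lost under quantile scaling, and those of EIF2A and EIF4B when some single libraries were left out. Of the 10, only EEF1A1 and EIF3D differed by at least 0.2 on the log2 scale. Of the 32 tested members with another start, 6 were higher, 11 lower and 15 not called, with a median of -0.08. Tested members without a start in the table are missing from this split. They include EIF4EBP1 (0.93), EEF1A2 (0.53), EIF2S2 (0.37), EIF3E (0.15) and EIF3H (0.14), called higher, and EIF3A (-0.25), called lower. EIF3G, EIF3L, EIF3CL, EEF1AKMT1 and EEF2KMT, not called, are missing as well. The split thus leaves out more rises than falls. Against BSGL the counts were 6 higher, 3 lower and 1 not called with the run (median 0.16), and 5 higher, 14 lower and 13 not called without it (median -0.10). Over all 710 tested genes with such a start, 27.6% were higher and 25.6% lower in RSGL than in control, with a median of 0.03, and over 8833 tested genes with another start 28.4% were higher and 29.6% lower, with a median of -0.01. The gap between both medians was thus smaller over all genes than over the members, and it was not tested. For CACGTG, 3 of 9 tested members with the motif were higher and 4 lower, and 10 of 33 without it were higher and 10 lower. Over all tested genes, 27.7% were higher and 29.4% lower with CACGTG, and 28.4% were higher and 29.3% lower without it.

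**Figure D4:**
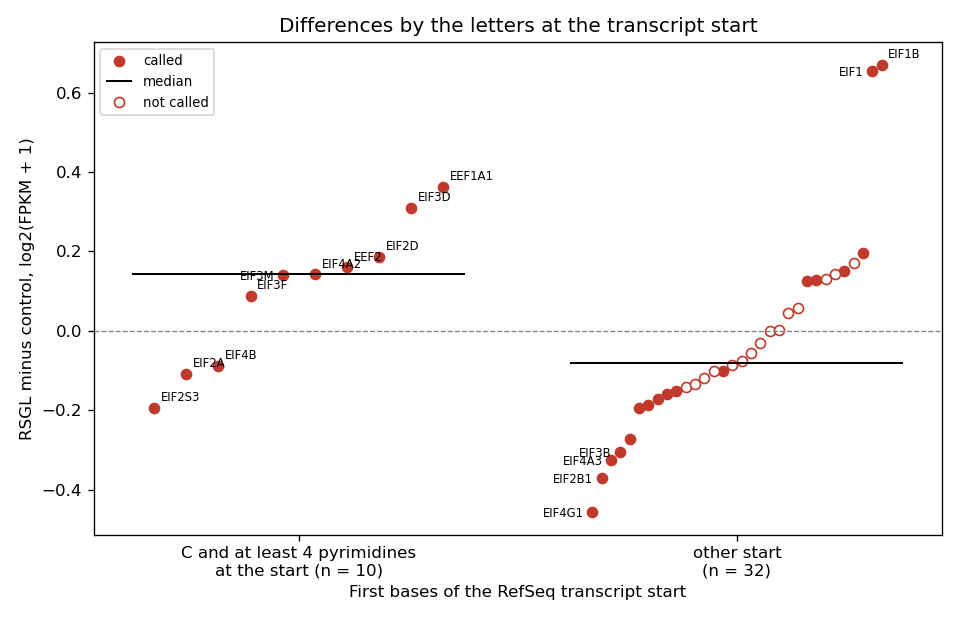
Difference between RSGL and control on the log2(FPKM + 1) scale for the 42 tested members with a start in the RefSeq table, split by whether the transcript begins with C and at least 4 further pyrimidines. Filled points are called genes and lines are medians, at 0.14 for the 10 with the run and -0.08 for the 32 without it.

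Gene length and level also differed between the directions. Members called higher in RSGL than in control had a median gene length of 1934 bases and a median control level of 111 FPKM, those called lower had 3988 bases and 94.1 FPKM, and those not called had 3432 bases and 12.8 FPKM. Over all genes tested, the median lengths were 3846, 3794 and 3248 bases for genes higher, lower and not called, with control levels of 6.77, 11.6 and 5.12 FPKM. Higher and lower members were thus farther apart in length than higher and lower genes in general, and the called members stood above the typical called gene in level. The part of length or level in these differences was not tested.

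The pathways that act on these factors were described by 6 lists of 67 genes. Their counts stand beside 27.2% higher and 27.6% lower in RSGL against control over all genes tested. Among 12 genes of the eIF2 alpha kinases, their cofactors, the phosphatase and the response factor ATF4, 5 rose and 4 fell with RSGL against control, with a median of -0.01. PPP1R15A, the stress-induced subunit that directs the phosphatase to eIF2 alpha, averaged 113 FPKM in RSGL, 29.9 FPKM in BSGL and 27.6 FPKM in control, a difference of 1.996 from control (SE 0.0505, adjusted p = 2.27e-09). ATF4, whose mRNA is translated when eIF2 alpha is phosphorylated, averaged 200.4 FPKM in RSGL, 113 FPKM in BSGL and 111 FPKM in control (0.85, adjusted p = 3.54e-07). The kinase EIF2AK3, known as PERK, rose by 0.47 to 4.39 FPKM in RSGL, against 2.89 FPKM in control, while the heme-regulated kinase EIF2AK1 fell by 0.26 to 35.1 FPKM, against 42.3 FPKM in control, and the catalytic phosphatase subunits PPP1CA and PPP1CC both fell by 0.36. Among 16 genes of mTORC1 and MAP kinase signalling, 14 were tested, 4 rose and 4 fell. DDIT4, an inhibitor of mTORC1, averaged 252 FPKM in RSGL, 143 FPKM in BSGL and 153 FPKM in control (0.72, adjusted p = 9.91e-07). MKNK2, which phosphorylates eIF4E, rose by 0.41, TSC1, a brake on mTORC1, by 0.42 and RHEB, its activator, by 0.30, and AKT1S1, a subunit that inhibits mTORC1, fell by 0.30.

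Among 13 partners of the cap and the poly(A) tail, 12 were tested, 2 rose and 4 fell with RSGL against control. All genes tested gave 27.2% higher and 27.6% lower in that comparison. DDX3X, a helicase for structured leaders, averaged 70.7 FPKM in RSGL, 93.3 FPKM in BSGL and 94.1 FPKM in control and fell by 0.41 (adjusted p = 5.77e-06), and the poly(A)-binding proteins PABPC1 and PABPC4, which contact eIF4G, fell by 0.15 and 0.22. Of 9 enzymes that build hypusine on eIF5A or diphthamide on eEF2, 3 rose and 1 fell. DPH5 rose by 0.29 and DPH2 fell by 0.35, both enzymes of diphthamide, whereas DHPS and DOHH, which make hypusine, were not called (adjusted p = 0.0729 and 0.273). Of 8 termination, recycling and reinitiation factors, 2 rose and 3 fell. PELO, which rescues stalled ribosomes, averaged 20.9 FPKM in RSGL and 14.7 FPKM in control and rose by 0.48, and the recycling ATPase ABCE1 fell by 0.22. Of 9 mitochondrial factors, 2 rose and 2 fell. Against BSGL, RSGL gave 5 higher and 5 lower, 4 and 3, 3 and 4, 3 and 1, 2 and 4, and 2 and 2 in the 6 lists in the order above. All genes tested gave 26.5% higher and 27.5% lower in RSGL than in BSGL. DHPS, not called against control, was called higher in RSGL than in BSGL, by 0.20 (limma adjusted p = 0.00976), and DOHH was not called (adjusted p = 0.686). BSGL against control gave 0 calls in each of the 6 lists, beside 0.0861% of all genes.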

How the data were processed

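Per the file headers, the table deposited by the authors holds FPKM, fragments per kilobase scaled to each library's size, with NCBI gene IDs, lengths and positions. The chromosome accessions are those of GRCh38. The submitters' processing notes name, with no roles, the tools DESeq2 1.16.1, HISAT2 2.0.5 and featureCounts 1.5.0-p3. The setting for strand was not among the sources used here, which leaves overlapping genes uncertain. Values were analysed as log2(FPKM + 1), which understates fold changes of low genes, over the 12775 genes that reached 1 FPKM in 3 or more of 9 libraries. The model was fitted in R 4.3.3 by limma 3.58.1, with statmod 1.5.0 installed, and had 1 term per group, all 9 libraries, an intensity trend and robust empirical Bayes. P-values were adjusted by Benjamini-Hochberg over all genes tested and called under 0.05, and intervals are 95% intervals. Differences are the first-named group minus the second. Negative binomial count models were not run here, since the values are FPKM. FPKM multiplied by gene length gave whole fragments within 0.01 for 100% of values under 300 fragments, and these fragments served the library check and 1 alternative test, limma-voom. The fit was also run on simulated data with 200 changed genes and the same extra spread for all genes. In RSGL against control 7005 of the 12775 genes were called, so that simulation does not show how well the fit worked on these libraries. Members, roles, the 6 pathway lists and the 6 marker lists were chosen with earlier results of these data known. Values in each library were given by rule for up to 6 largest rises and 6 largest falls per comparison. These were taken among called members of at least 5 FPKM. The rule also covers sister copies and the most abundant member of each role. Exceptions were EIF4E3, EIF3E and EEF2KMT, given by means or ranges, and EIF4G2 and EIF4G3, given without BSGL libraries. Other members are given by means, counts or ranges, and those with library values beyond the rule were chosen after their values were seen. Settings tried changed the scaling, pseudocount, filter, genes tested, model, samples, replicate block, test, fold required and libraries. 1 member on the Y chromosome is not reported here. All 9 value columns of the table were assigned to a sample by name, and 0 were left over.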

Additional observations from a re-analysis of the deposited data

How the results depend on the processing

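Under 20 other settings, 13 of the 33 members called in RSGL against control kept their call throughout, 11 lost it only where a log2 difference of at least 0.2 was also required, and 9 lost it elsewhere. In RSGL against BSGL, 16 of 35 kept it, 8 lost it only with that requirement and 11 elsewhere. With the requirement, 7 of 53 members were higher and 6 lower in RSGL against control, while 22.5% of all genes were higher and 22.1% lower. In RSGL against BSGL, 9 of 53 members were higher and 9 lower, while 21.9% of all genes were higher and 21.8% lower. The member shares were thus smaller than those of all genes. When each library was left out in turn, RSGL against control gave 16 to 20 higher and 12 to 17 lower, RSGL against BSGL 13 to 17 higher and 13 to 18 lower, and BSGL against control 0. No called difference changed sign under these settings. The median over all genes stayed between -0.0169 and 0.0066 in the 3 comparisons under the other scalings.

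Differences between BSGL and control near 0, none of them called, changed sign. Quantile scaling gave -0.0144 for EEF1A1, -0.0010 for EIF1B, -0.0149 for EIF3A, -0.0006 for EIF3E and -0.0168 for EIF5A, and limma-voom gave -0.0038 for EIF1B and -0.0042 for EIF3A. With each library left out, EIF1B ranged from -0.0180 to 0.0311, EIF3A from -0.0086 to 0.0201, EIF3B from -0.0334 to 0.0026, EIF3E from -0.0031 to 0.0535, EIF4EBP2 from -0.0150 to 0.0379, EIF4G1 from -0.0318 to 0.0010, EIF5A from -0.0060 to 0.0983 and EIF5A2 from -0.0676 to 0.0615.

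The groups share replicate numbers, but deviations of same-numbered libraries correlated at -0.212 to 0.121, so the numbers were not taken as pairs. With the replicate block, RSGL against control gave 17 higher and 13 lower, RSGL against BSGL 16 and 18, and BSGL against control 0 and 0. Leaving out EIF3C, EIF3CL and EIF5AL1, which was chosen after seeing the data, gave 18 and 15, 16 and 18, and 0 and 0.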

Other observations

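Another 4 genes with symbols of this family are placed by the table on alternate or patch scaffolds and so fall outside the rule and were not compared between groups. For 3 of them, values differed strongly between libraries of 1 group. EEF1B2, a subunit of the exchange complex that recharges eEF1A, was listed at 131, 107 and 7.99 FPKM in RSGL libraries, 73.8, 1.6 and 1.77 FPKM in BSGL libraries and 66.8, 130.2 and 147 FPKM in control libraries. EIF3K, a small subunit of eIF3, was listed at 151, 20.5 and 26.6 FPKM in RSGL, 22.2, 143 and 19.4 FPKM in BSGL and 21.4, 18.6 and 19.8 FPKM in control. EEF1D, another exchange subunit, was listed at 0.92, 2.51 and 1.01 FPKM in RSGL, 17.1, 1.62 and 2.27 FPKM in BSGL and 1.37, 1.49 and 20.6 FPKM in control. The highest library was 91.9 times the lowest for EEF1B2, 8.1 times for EIF3K and 22.4 times for EEF1D. EEF2K, the kinase that inhibits eEF2, was listed at 0.194 to 0.583 FPKM over the 9 libraries.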
